A study of Mus musculus with 28 samples.

Results

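The genes described here are 10 feedback and output genes of the mitogen-activated protein kinase (MAPK) pathway that ends in the kinase ERK. They were chosen by name for their role in the pathway, with earlier results of these data known, and all 10 were found among the 22187 genes of the table: the phosphatases Dusp4, Dusp5 and Dusp6, the inhibitors Spred1, Spred2, Spry2 and Spry4, the pleckstrin homology domain protein Phlda1, and the transcription factors Etv4 and Etv5. They were followed in 28 RNA libraries, 14 from liver tumors and 14 from non-tumor liver of C57BL/6 mice.

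All mice, without exception, had received diethylnitrosamine (DEN), a liver carcinogen, at 25 mg per kg body weight when 2 weeks old, and all carried a floxed Il17ra gene, which encodes the interleukin-17 receptor A chain. The dHEP mice (AlbCre Il17ra flox/flox) also carried Cre driven by the albumin promoter, which acts in hepatocytes, so that other liver cells keep the receptor; the FF mice (Il17ra flox/flox) are labelled with the floxed gene alone. Mice were fed for 18 weeks either an alcohol diet, named in the labels both as liquid ethanol feeding and as a high-fat diet with alcohol, or chow. Each group on alcohol had 4 libraries and each group on chow had 3, in both tissues and both genotypes. Values are CPM, counts per 1000000 counts of the library, and libraries are named by genotype and animal number. Non-tumor liver came from the same DEN-treated mice or from mice treated alike, and no liver without DEN was analysed here. Animal numbers ran from FF-503 to FF-595 on alcohol and from dHEP-155 to FF-169 on chow, so diet and cohort cannot be told apart.

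The steps between the lowest values of a library show that 1 read was worth 0.0561 to 0.1045 CPM, which puts depth at 9.57 to 17.82 M reads (M, 1000000). Albumin (Alb), the main product of hepatocytes, lay between 67800 and 144500 CPM in tumors and between 24250 and 64140 CPM in non-tumor liver. Il17ra, the targeted gene, lay between 8.34 and 12.99 CPM in dHEP non-tumor liver, below all FF non-tumor libraries (14.7 to 31.0 CPM), while dHEP tumors (8.38 to 29.4 CPM) overlapped FF tumors (20.8 to 33.9 CPM). Some libraries stood apart from their label: tumor dHEP-549 held 7 tumor markers, summed, at 69.0 CPM, within the range of non-tumor liver (19.9 to 414 CPM), and non-tumor FF-523 and FF-581 held 384 and 414 CPM, above the other 12. Differences are given as tumor minus non-tumor, dHEP minus FF or alcohol minus chow on the log2(CPM + 1) scale with their standard error (SE), from a limma fit over all genes; the added 1 makes this scale understate changes of genes below a few CPM. Calls needed an adjusted p under 0.05, with the Benjamini-Hochberg method over all genes tested.

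Growth factor receptors signal through RAS, RAF and MEK to ERK, and active ERK switches on genes that restrain it. DUSP phosphatases remove the activating phosphates from ERK, SPRY and SPRED proteins act upstream on receptor signaling, RAS and RAF, and ETV4 and ETV5 are ETS family transcription factors whose levels follow ERK signaling and which act on its target genes. Liver tumors raised by DEN in mice often carry activating mutations of Hras, Braf or Egfr. Mutations and ERK phosphorylation were not measured here.

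The comparison of tumor with non-tumor liver gave the largest differences among these genes. Averaged over the 4 genotype and diet combinations, 8 of the 10 genes were higher in tumors, 1 (Phlda1) was lower and 1 (Spry4) was not called. Of the 8, Etv4 reached the 1 CPM needed for testing in tumors only (at most 0.475 CPM in non-tumor liver). Dusp5 stood out with a log2 difference of 3.28 ± 0.31, ahead of Dusp4 at 2.43 ± 0.24 (SE, 14 libraries per tissue). Much of the transcriptome differed as well: 58.5% of the 13503 genes tested were called, 37.6% as higher and 20.9% as lower. The median difference was 1.01 over the 10 genes and 0.12 over all genes tested. After scaling the libraries by median of ratios the split of all genes was 31% higher and 29.3% lower with a median near 0.02, and the feedback genes had the same 8 called higher and 1 lower, with a median of 0.91. Fewer cells of a type and less RNA per cell cannot be told apart in such whole-tissue samples. Markers of several cell types moved with tissue. The 4 proliferation markers summed to a median of 143 CPM in tumors (42.8 to 373) and 14.6 CPM in non-tumor liver (6.67 to 53.9), and the 6 biliary markers to 154 CPM in tumors (7.38 to 3170) and 27.7 CPM in non-tumor liver (22.8 to 104). The 6 Kupffer cell markers summed to a median of 167.7 CPM in tumors (35.4 to 361) and 368.5 CPM in non-tumor liver (174 to 522). Hepatocyte markers summed to a median of 135200 CPM in tumors and 66840 CPM in non-tumor liver. Stellate cell and fibroblast markers had medians of 762 and 472 CPM in the same order, and endothelial markers 327 and 311 CPM. The part of these cell types in the differences of the feedback genes was not tested.

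**Figure D1:**
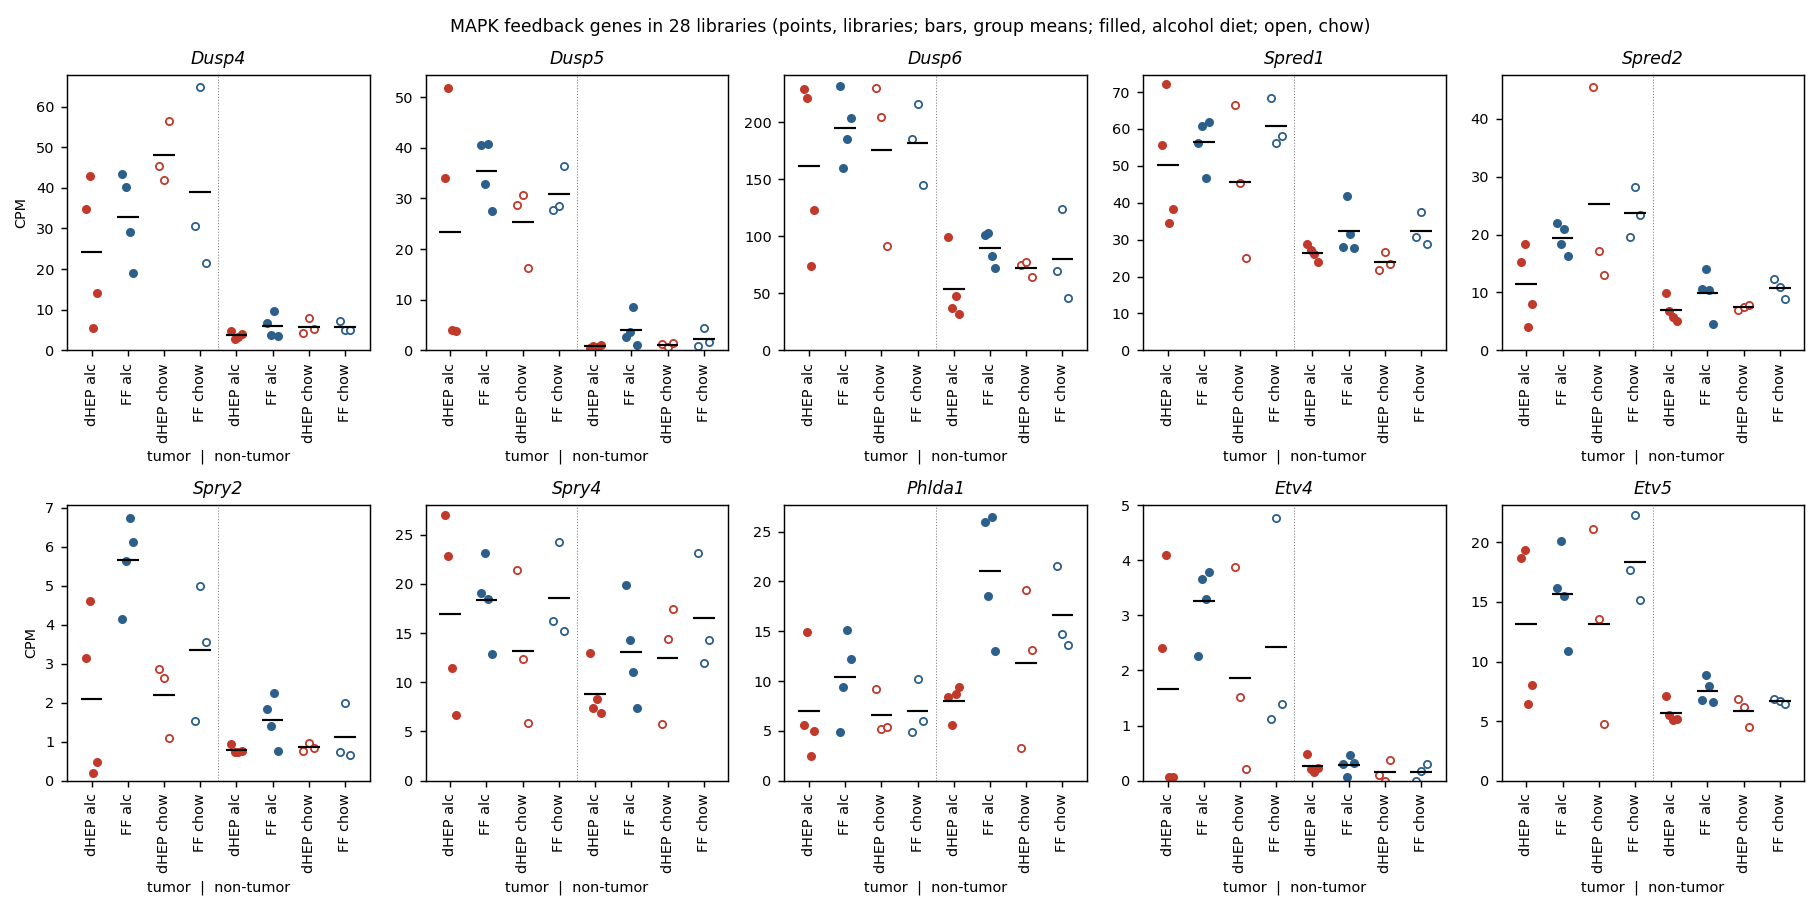
CPM of each feedback gene in the 28 libraries (linear axes from 0). Points are libraries, horizontal bars are group means, red is dHEP, blue is FF, filled points are the alcohol diet and open points are chow; tumor groups stand left of the dotted line and non-tumor groups right of it. Dusp5 reached 51.9 CPM in tumors and at most 8.50 CPM in non-tumor liver, whereas Phlda1 reached 15.1 CPM in tumors and 26.5 CPM in non-tumor liver.

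Dusp5 (ENSMUSG00000034765, chromosome 19, 53529109 to 53542431, plus strand, GRCm38) encodes a nuclear phosphatase specific for ERK. In dHEP mice on alcohol it read 34.0 CPM in tumor dHEP-518, 51.9 in dHEP-520, 3.99 in dHEP-549 and 3.72 CPM in dHEP-550, against 0.554, 0.946, 0.735 and 0.998 CPM in their non-tumor liver. In FF mice on alcohol it read 40.6 CPM in tumor FF-503, 32.8 in FF-523, 40.8 in FF-581 and 27.6 CPM in FF-595, against 2.59, 3.67, 8.50 and 1.09 CPM in their non-tumor liver. Within each of these groups every tumor lay above every non-tumor library, although the tumors dHEP-549 and dHEP-550 lay far below the other 6. In dHEP mice on chow it read 28.8, 30.8 and 16.2 CPM in tumors of dHEP-155, dHEP-164 and dHEP-165, against 1.31, 0.593 and 1.51 CPM in their non-tumor liver. In FF mice on chow it read 27.7, 28.5 and 36.4 CPM in tumors of FF-167, FF-168 and FF-169, against 0.836, 4.35 and 1.60 CPM in non-tumor liver of the other mice FF-157, FF-158 and FF-159. The chow groups did not overlap either. Over all 14 libraries per tissue Dusp5 averaged 28.8 ± 13.4 CPM in tumors and 2.09 ± 2.18 CPM in non-tumor liver (SD), and the averaged difference had an adjusted p of 5.03e-09 (limma).

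The promoter of Dusp5 is shown because this gene had the largest difference, that of Etv5 because it holds a motif named below, and that of Dusp6, the most abundant of these genes, as one without any. The sequences are the bases before the RefSeq start on build GRCm38.p6, read in the direction of the gene; for Dusp5 they run from 250 to 37 bases before the start, since the bases nearer to it lie in an exon of the GENCODE annotation. The motif search covered all 250 bases before each start, such bases included. RefSeq promoters were at hand for 6 of the 10 genes (7 promoters, Etv5 having a pair of starts), and both strands were searched for GGAAGT (ETS family), TGANTCA (AP-1), TGACGTCA (CRE) and the CArG box of serum response factor, the last chosen after the promoters had been seen. Capitals mark the matches, where ACTTCC is GGAAGT on the other strand and the unbroken stretch of capitals in Dusp5 is a pair of adjacent CArG boxes.
Dusp5, chr19:53528895-53529108, plus strand: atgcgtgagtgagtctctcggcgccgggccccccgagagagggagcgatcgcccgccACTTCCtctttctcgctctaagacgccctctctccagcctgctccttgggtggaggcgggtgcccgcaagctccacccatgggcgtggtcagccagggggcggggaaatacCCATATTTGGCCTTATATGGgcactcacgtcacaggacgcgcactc
Etv5, chr16:22438369-22438618, minus strand, second start: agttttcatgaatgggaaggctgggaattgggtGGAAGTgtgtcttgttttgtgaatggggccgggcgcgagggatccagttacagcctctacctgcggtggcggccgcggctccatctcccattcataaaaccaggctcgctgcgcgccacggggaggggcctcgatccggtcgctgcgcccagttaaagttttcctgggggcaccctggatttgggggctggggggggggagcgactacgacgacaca
Dusp6, chr10:99262981-99263230, plus strand: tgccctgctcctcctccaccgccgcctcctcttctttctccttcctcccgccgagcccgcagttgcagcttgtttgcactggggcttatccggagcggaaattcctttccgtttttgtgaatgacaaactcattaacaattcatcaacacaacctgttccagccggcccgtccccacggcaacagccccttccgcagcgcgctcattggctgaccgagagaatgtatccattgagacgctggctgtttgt
GGAAGT lay 193 to 188 bases before the Dusp5 start and 217 to 212 bases before that Etv5 start. It also lay 33 to 28 bases before the RefSeq start of Spred2, among bases that GENCODE counts as an exon and that are not printed. The CArG boxes of Dusp5 lay 82 to 73 and 72 to 63 bases before the start, and no other promoter of these genes held one. GGAAGT occurs in 19.74% of 32851 promoters of the same length, TGANTCA in 6.749%, TGACGTCA in 1.546% and a CArG box in 1.467%. These 7 windows held neither TGANTCA nor TGACGTCA. A match is a run of letters in this window and was not tested for binding.

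Dusp4 (ENSMUSG00000031530, chromosome 8, 34807297 to 34819894, plus strand), another nuclear phosphatase, acts on ERK and on the stress kinase JNK. dHEP tumors on alcohol read 34.8, 43.0, 5.47 and 14.1 CPM, against 4.83, 2.69, 3.35 and 4.07 CPM in non-tumor liver, in the order of mice given for Dusp5, which holds for the values below too. FF tumors on alcohol read 43.4, 40.1, 29.0 and 19.1 CPM, against 6.69, 3.87, 9.76 and 3.52 CPM in non-tumor liver. Tumor dHEP-549 was the only tumor inside the range of the 14 non-tumor libraries (2.69 to 9.76 CPM). dHEP tumors on chow read 45.4, 42.0 and 56.5 CPM, against 4.31, 7.93 and 5.27 CPM in non-tumor liver. FF tumors on chow read 30.6, 64.8 and 21.4 CPM, against 7.21, 4.89 and 4.92 CPM in non-tumor liver. The averaged difference of 2.43 ± 0.24 had an adjusted p of 8.62e-09 (limma), and within each genotype and diet no tumor overlapped non-tumor liver.

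Dusp6 (ENSMUSG00000019960, chromosome 10, 99263231 to 99267489, plus strand) encodes the cytoplasmic ERK phosphatase and is widely used as a readout of ERK signaling. The dHEP mice on alcohol had 229, 221, 74.0 and 123 CPM in tumors, against 99.2, 37.4, 47.7 and 31.6 CPM in non-tumor liver. The FF mice on alcohol had 232, 159.4, 185 and 204 CPM in tumors, against 101, 103, 83.0 and 72.4 CPM in non-tumor liver. Tumors lay above non-tumor liver except that dHEP-549, at 74.0 CPM, lay below the non-tumor liver of dHEP-518. Tumors of dHEP mice on chow had 230.2, 205 and 91.2 CPM, against 74.3, 77.7 and 64.2 CPM in their group's non-tumor liver. Tumors of FF mice on chow had 185, 216 and 145 CPM, against 69.6, 124 and 45.6 CPM in their group's non-tumor liver. The averaged difference was 1.28 ± 0.19 (adjusted p = 5.32e-06, limma), and 11 of 14 tumors exceeded the highest non-tumor library.

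The SPRED proteins bind RAS signaling at the membrane, where they bring in the RAS inhibitor neurofibromin. Spred1 (ENSMUSG00000027351, chromosome 2, 117121374 to 117182279, plus strand) had a median of 56.2 CPM in tumors (25.0 to 72.2) and 27.8 CPM in non-tumor liver (21.7 to 41.9), and its averaged difference of 0.84 ± 0.12 was the smallest of the 8 rises (adjusted p = 2.92e-06, limma). Spred2 (ENSMUSG00000045671, chromosome 11, 19924375 to 20024026, plus strand) had a median of 18.4 CPM in tumors (4.05 to 45.6) and 8.34 CPM in non-tumor liver (4.48 to 14.1), with a difference of 1.0 ± 0.20 (adjusted p = 0.000126, limma). For each of them 11 of 14 tumors lay above all non-tumor libraries, and Spred2 in tumor dHEP-549 lay below all of them. The highest Spred2 value, 45.6 CPM, was in tumor dHEP-155, where the 6 biliary markers summed to 3170 CPM, against 7.38 to 752 CPM in the other 13 tumors; the part of these cells in the Spred2 value was not tested.

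The Sprouty proteins restrain receptor signaling to RAS and RAF. Spry2 (ENSMUSG00000022114, chromosome 14, 105891947 to 105896819, minus strand) was a low gene in non-tumor liver, with a median of 0.808 CPM. In dHEP mice on alcohol it read 3.15, 4.60, 0.203 and 0.466 CPM in tumors, against 0.950, 0.727, 0.735 and 0.768 CPM in non-tumor liver. In FF mice on alcohol it read 4.15, 5.64, 6.75 and 6.13 CPM in tumors, against 1.83, 1.40, 2.24 and 0.769 CPM in non-tumor liver. The tumors dHEP-549 and dHEP-550 thus read below all 14 non-tumor libraries, while the other 6 on alcohol read above all of them. On chow it read 2.86, 2.63 and 1.08 CPM in dHEP tumors, against 0.750, 0.963 and 0.847 CPM in dHEP non-tumor liver. On chow it read 1.52, 4.99 and 3.56 CPM in FF tumors, against 0.731, 1.99 and 0.652 CPM in FF non-tumor liver. The averaged difference was 0.91 ± 0.20 (adjusted p = 0.00043, limma). Spry4 (ENSMUSG00000024427), its relative, overlapped widely, with 5.88 to 26.98 CPM in tumors and 5.72 to 23.2 CPM in non-tumor liver and medians of 17.3 and 12.5 CPM in the same order. Its difference of 0.36 ± 0.22 was not called (adjusted p = 0.152, limma).

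Etv4 (ENSMUSG00000017724, chromosome 11, 101769742 to 101785371, minus strand) and Etv5 (ENSMUSG00000013089, chromosome 16, 22381309 to 22439719, minus strand) encode closely related ETS factors of the PEA3 group. Etv4 was nearly silent in non-tumor liver, at 0 to 0.475 CPM. No non-tumor library reached 1 CPM, so tumors alone admitted Etv4 to the tests. Its calls as higher, also those within FF mice, carry this limit. On alcohol it read 2.40, 4.10, 0.0676 and 0.0665 CPM in dHEP tumors and 2.26, 3.67, 3.31 and 3.80 CPM in FF tumors. On chow it read 3.87, 1.52 and 0.203 CPM in dHEP tumors and 1.11, 4.77 and 1.39 CPM in FF tumors. The values of dHEP-549 and dHEP-550 are what 1 read was worth in those libraries (0.0675 and 0.0665 CPM), and with dHEP-165 they were the 3 tumors that did not exceed the non-tumor range. The averaged difference was 1.24 ± 0.23 (adjusted p = 5.82e-05, limma) on the log2(CPM + 1) scale, which understates it, since the mean was 2.32 ± 1.62 CPM in tumors and 0.228 ± 0.155 CPM in non-tumor liver (SD, 14 libraries each). Etv5 had a median of 15.8 CPM in tumors (4.80 to 22.3) and 6.65 CPM in non-tumor liver (4.52 to 8.88). Its difference was 1.02 ± 0.17 (adjusted p = 2.39e-05, limma), and the same 3 tumors lay within the non-tumor range.

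Phlda1 (ENSMUSG00000020205, chromosome 10, 111506286 to 111508645, plus strand), whose human protein binds a receptor of the ERBB family and dampens its signaling, ran the other way. Its values on alcohol were 5.63, 14.9, 2.499 and 4.99 CPM in dHEP tumors, against 8.40, 5.60, 8.66 and 9.37 CPM in non-tumor liver. Its values on alcohol were 4.87, 9.38, 15.1 and 12.3 CPM in FF tumors, against 26.0, 18.6, 26.5 and 13.1 CPM in non-tumor liver. Tumors overlapped non-tumor liver in both genotypes on alcohol. On chow it read 9.17, 5.14 and 5.40 CPM in dHEP tumors, against 3.28, 19.1 and 13.1 CPM in dHEP non-tumor liver. On chow it read 4.85, 10.2 and 5.98 CPM in FF tumors, against 21.5, 14.8 and 13.6 CPM in FF non-tumor liver, where the groups did not overlap. The averaged difference was -0.77 ± 0.23 (adjusted p = 0.0064, limma). With the animal as a block, which leaves out FF chow because its tumors and non-tumor liver came from different mice, it was -0.63 and no longer called (adjusted p = 0.102, limma).

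**Figure D2:**
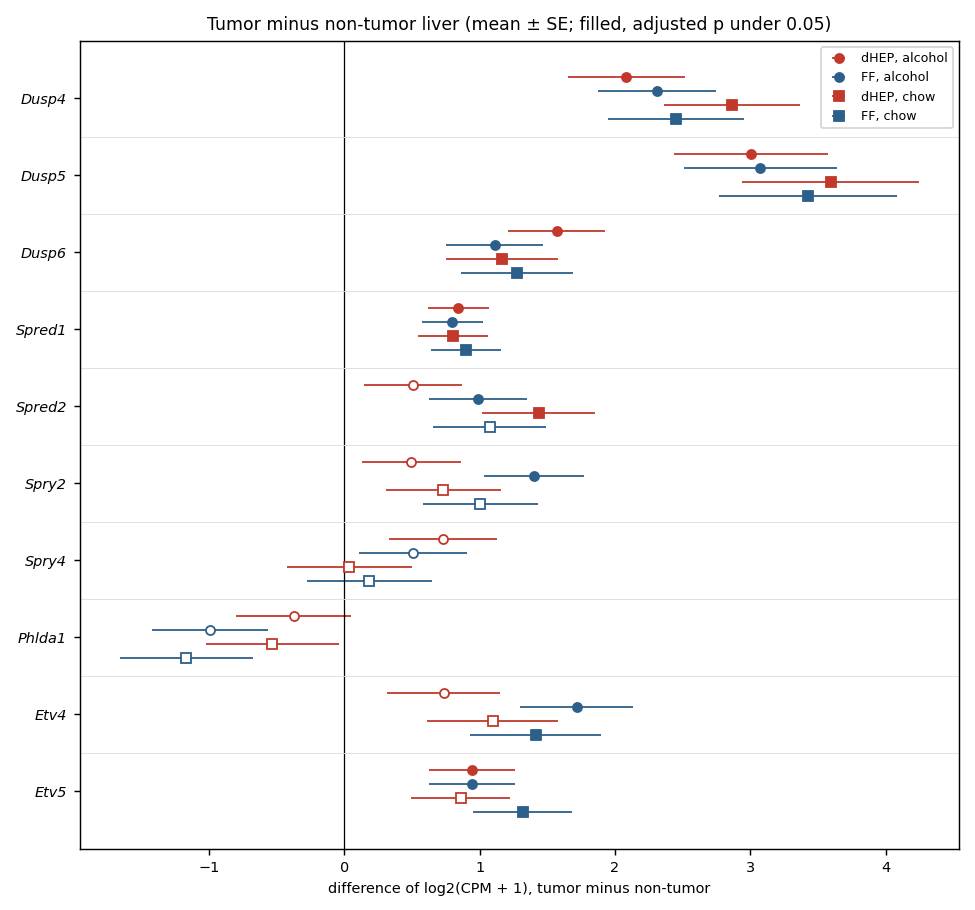
Difference between tumor and non-tumor liver of each feedback gene on the log2(CPM + 1) scale in the 4 genotype and diet combinations (points, estimate; lines, ± SE; filled points, adjusted p under 0.05; red, dHEP; blue, FF; circles, alcohol; squares, chow). Dusp4 and Dusp5 are filled in all 4, with estimates from 2.08 to 3.59, and Phlda1 is the only gene whose 4 estimates are below 0.

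Within the separate combinations 5 genes were called in dHEP on alcohol (background 20.4% of genes called, 12.9% as higher), 5 in dHEP on chow (27.9% and 17.2%), 8 in FF on alcohol (24.6% and 13.9%) and 6 in FF on chow (30.8% and 21.2%), all as higher in tumors. Dusp4, Dusp5, Dusp6 and Spred1 were called in all 4. After median-of-ratios scaling Dusp6 was not called in dHEP on chow (adjusted p = 0.0551, limma) and Phlda1 was called as lower in FF on chow (adjusted p = 0.0371), while the other calls in the 4 combinations held. Tumors lay wholly above non-tumor liver for 3 genes in dHEP on alcohol (13.8% of all genes), 5 in dHEP on chow (23.5%), 8 in FF on alcohol (15.9%) and 7 in FF on chow (30.7%), and wholly below it for Phlda1 in FF on chow (15.7%). The differences between the combinations were themselves tested as interactions of genotype or diet with tissue. These called none of the 10 genes and none of the 13503 genes tested (0%, limma). No feedback gene reached an unadjusted p under 0.05, against 266 of all genes for genotype on alcohol, 421 for genotype on chow, 867 for diet in dHEP and 801 for diet in FF mice. Their smallest unadjusted p was 0.0956, for Spry2 between dHEP and FF on alcohol (-0.90 ± 0.52).

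Dusp4 and Dusp5 kept their calls in every combination when any compared library was left out. In dHEP on alcohol Etv5 lost its call without tumor dHEP-518 or dHEP-520 or non-tumor dHEP-520, dHEP-549 or dHEP-550 (adjusted p 0.0773 to 0.142, limma). In dHEP on chow the count fell to 2 without tumor dHEP-155: Dusp6 then had an adjusted p of 0.181, Spred1 of 0.207 and Spred2 of 0.13. Spred1 also lost its call there without tumor dHEP-164 or non-tumor dHEP-155 or dHEP-165 (0.0533 to 0.0744), and Dusp6 without tumor dHEP-164 or any non-tumor library (0.0687 to 0.11). Without tumor dHEP-165 the count was 7 instead, as Etv4 (0.0173) and Etv5 (0.00295) joined. In FF on alcohol Dusp6 lost its call without tumor FF-503 or FF-595 or non-tumor FF-581 or FF-595 (0.0523 to 0.0704), and the same held for Spred2 without any library but non-tumor FF-523 (0.0593 to 0.195) and for Etv5 without any but tumor FF-595 and non-tumor FF-523 (0.0502 to 0.0988). Without both FF-523 and FF-581 of non-tumor liver 6 calls held there, with Dusp6 at 0.0766 and Etv5 at 0.061. In FF on chow the call was lost for Dusp6 without any library but tumor FF-169 and non-tumor FF-158 (0.0568 to 0.138) and for Etv4 without tumor FF-168 or any non-tumor library (0.0546 to 0.177), while Spry2 gained a call without tumor FF-167 (0.0353) or non-tumor FF-158 (0.0436). Without tumor dHEP-549 the 5 calls in dHEP on alcohol all held, with larger differences (Dusp4 2.62, Dusp5 3.52, Dusp6 1.90). The 9 calls of the averaged comparison were all kept in each of the 28 fits that left out a library.

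**Figure D3:**
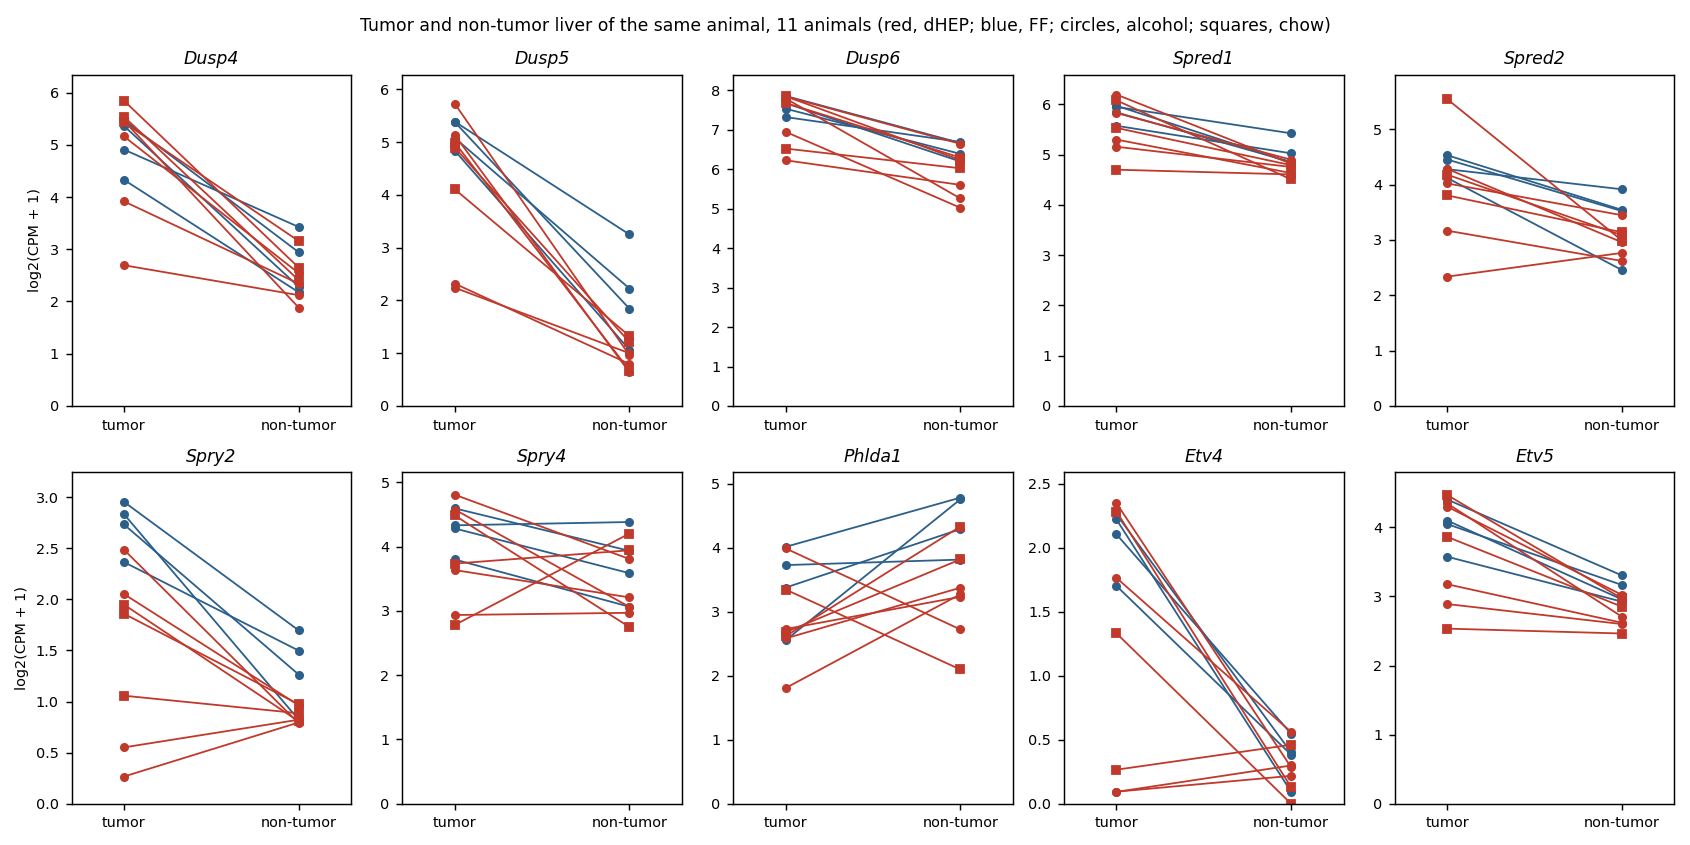
Tumor and non-tumor liver of the same animal, joined by a line, for the 11 animals with both tissues (log2(CPM + 1); red, dHEP; blue, FF; circles, alcohol; squares, chow). Lines of Dusp4, Dusp5, Dusp6, Spred1 and Etv5 fall from tumor to non-tumor liver in all 11 animals, and those of Phlda1 climb in 9. Values are without median-of-ratios scaling, and the share of all genes that fall in all 11 was not computed.

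Set beside the non-tumor liver of the same animal, the tumor was higher in 11 of 11 animals for Dusp4, Dusp5, Dusp6, Spred1 and Etv5. The share of all genes higher in 11 of 11 was not computed, and these values are without median-of-ratios scaling. Etv5 (0.07) and Spred1 (0.094) differed least in dHEP-165, whose scaling factors were 1.0786 for tumor and 0.9676 for non-tumor liver. Differences that small depend on the scaling. For Dusp5 the difference ran from 1.24 in dHEP-550 to 4.77 in dHEP-520 (median 3.54, log2(CPM + 1)). For Dusp4 it ran from 0.57 to 3.58 (median 2.53). Spred2 was higher in the tumor of 10 animals, Spry2 of 9, Etv4 of 8 and Spry4 of 7, and Phlda1 was lower in 9. The exceptions for Phlda1 were dHEP-520 (+1.27) and dHEP-155 (+1.25). With the animal as a block the calls on Etv5 in dHEP on alcohol (adjusted p = 0.0566, limma) and Spred1 in dHEP on chow (adjusted p = 0.11) were lost, and calls in FF on alcohol were gained for Phlda1 (-0.99, adjusted p = 0.04) and Spry4 (0.51, adjusted p = 0.0445).

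Levels of different genes were set against each other per kb of exon (GENCODE). In tumors the order of the medians was Dusp6 (62.0 CPM per kb), Dusp4 (13.7), Dusp5 (12.04), Spred1 (8.28), Spred2 (3.99), Etv5 (3.86), Spry4 (3.64), Phlda1 (2.63), Spry2 (1.61) and Etv4 (0.750). In non-tumor liver it was Dusp6 (23.4 CPM per kb), Phlda1 (6.06), Spred1 (4.10), Spry4 (2.63), Spred2 (1.81), Dusp4 (1.77), Etv5 (1.62), Dusp5 (0.485), Spry2 (0.387) and Etv4 (0.0723). Dusp6 led in both tissues, whereas Dusp5 ranked 3 of 10 in tumors and 8 of 10 in non-tumor liver. Neighbours such as Spred2, Etv5 and Spry4 in tumors lay within the spread between libraries.

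Across the list, 3 of the 14 tumors stood low. Tumors dHEP-549 and dHEP-550 (alcohol) were among the lowest 3 of 14 for all 9 genes other than Phlda1, and tumor dHEP-165 (chow) for 8 of these 9. In dHEP-549 none of the 9 genes exceeded the highest non-tumor library. The same held for 8 of the 9 in dHEP-550 and 7 in dHEP-165, against 0 to 2 in each of the other 11 tumors. Dusp4 was the exception to the low ranks of dHEP-165: at 56.5 CPM it was the second highest of the 14 tumors. In that library Spred1 (25.0 CPM), Spry4 (5.88 CPM) and Etv5 (4.80 CPM) were the lowest. The sum of the 7 tumor markers found set only dHEP-549 apart: it was 69.0 CPM there, 922 CPM in dHEP-550 and 839 CPM in dHEP-165, against 923 to 3867 CPM in the other 11 tumors. Of single markers, looked at after the values were seen, Gpc3 (the oncofetal protein glypican-3) read 0.473 CPM in dHEP-549, 1.66 CPM in dHEP-550 and 16.1 CPM in dHEP-165, against 71.0 to 482 CPM in the other tumors. Afp, encoding alpha-fetoprotein, read 5.47, 50.6 and 33.4 CPM in the same order, against 129 to 1448 CPM in the others. Most of the marker sum in dHEP-550 and dHEP-165 thus came from tumor markers other than Gpc3 and Afp, which are not given singly here. The proliferation gene Mki67 read 31.5 CPM in dHEP-549 but 213 CPM in dHEP-550, the highest of the tumors, and 86.0 CPM in dHEP-165. The part of the share of tumor cells in these values was not tested.

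**Figure D4:**
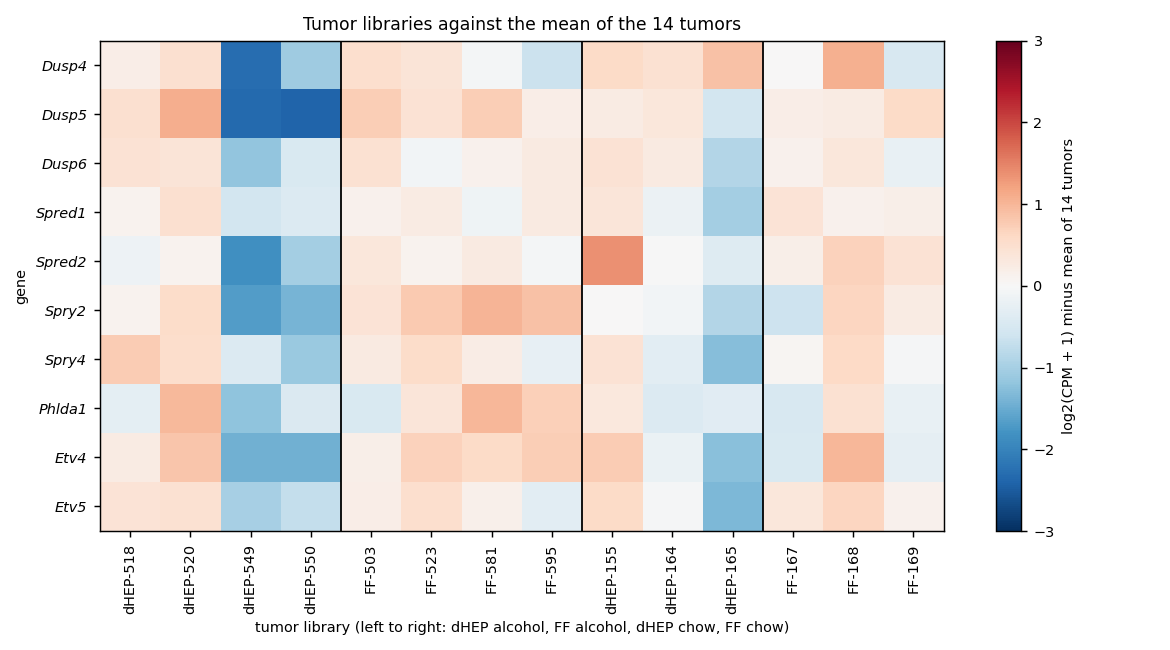
Each tumor library against the mean of the 14 tumors for each feedback gene (color, log2(CPM + 1) minus that mean; red, above; blue, below); black lines separate, left to right, dHEP on alcohol, FF on alcohol, dHEP on chow and FF on chow. The columns of dHEP-549 and dHEP-550 are blue throughout, down to -2.41 for Dusp5 in dHEP-550, and that of dHEP-165 is blue except for Dusp4 (0.87).

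Over the 14 tumors all 45 pairs of these genes correlated positively, with Pearson r from 0.26 (Dusp4 with Spred1) to 0.917 (Spry2 with Etv4) and a median of 0.725. Over the 14 non-tumor libraries the 36 pairs of the 9 genes other than Etv4 ranged from 0.118 (Dusp4 with Spred1) to 0.865 (Dusp5 with Spry2), with a median of 0.533. Libraries share their depth and their makeup of cells across genes, so these values are descriptions. The low tumors dHEP-549, dHEP-550 and dHEP-165 are among the 14 tumors. Values of r without them, or over pairs of all genes, were not computed. The genes outside the list whose pattern was most like it in tumors were Fam84b, Igsf9, Fhl3, Vill and Pak1, with a mean r of 0.79 to 0.81 with the 10 genes. In non-tumor liver they were Lrch3, Lmf2, Egr1, Lrp10 and Dync1li1, with a mean r of 0.64 to 0.67 with the 9 genes. Egr1 encodes an immediate early transcription factor induced by ERK.

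The comparison of dHEP with FF mice asks whether loss of the interleukin-17 receptor from hepatocytes went with different levels of these genes. No feedback gene was called in any genotype comparison, and neither was any other gene (0% in each). The estimates lay mostly below 0, but these genes vary together over the same libraries, so their signs are not separate observations. In non-tumor liver on alcohol all 9 genes tested were lower in dHEP than in FF mice by their estimates, with a median difference of -0.48, against -0.05 over all 12651 genes. Etv4 was too low to be tested there. At an unadjusted p under 0.05 there were 5 of these 9 genes and 1077 of all genes (limma). Of these 5, Spry2 passed the filter on low values through FF libraries alone, and Dusp5 needed FF libraries to pass it.

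Phlda1 in non-tumor liver on alcohol averaged 8.01 ± 1.66 CPM in dHEP and 21.03 ± 6.44 CPM in FF mice (SD, n = 4 each). The difference was -1.26 ± 0.38 (adjusted p = 0.414, limma). Dusp5 averaged 0.808 ± 0.204 CPM in dHEP and 3.96 ± 3.21 CPM in FF mice, with a difference of -1.25 ± 0.40 (adjusted p = 0.445, limma). For both genes all 4 dHEP libraries, given above, lay below all 4 FF libraries, which held for 2.75% of all genes, while no feedback gene lay wholly above (1.16% of all genes). The other genes at an unadjusted p under 0.05 were Dusp6 (-0.85 ± 0.32), Spry2 (-0.48 ± 0.21) and Etv5 (-0.35 ± 0.15). In these dHEP libraries Dusp5 and Spry2 lay below 1 CPM and rest on few reads. For Spry2 no dHEP non-tumor library of either diet reached 1 CPM (highest 0.963 CPM), so FF libraries alone admitted it to the test. Dusp5 reached 1 CPM in dHEP non-tumor liver only on chow (1.31 and 1.51 CPM), short of the 3 libraries needed. The p of these genes is therefore no separate evidence of lower values in dHEP mice. Among the FF libraries, FF-523 and FF-581 stood apart in the tumor marker Afp (213 and 159.2 CPM), which reached 1.41 to 8.82 CPM in the other 12 non-tumor libraries. The 7 tumor markers summed to 384 and 414 CPM in these libraries, against 19.9 to 79.0 CPM in the others, and their part in the difference was not tested beyond leaving the libraries out. Without both, the estimates were -0.60 for Dusp5, -1.13 for Phlda1, -0.80 for Dusp6 and -0.20 for Etv5, with adjusted p between 0.79 and 0.93 (limma), and Spry2 did not pass the filter on low values.

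**Figure D5:**
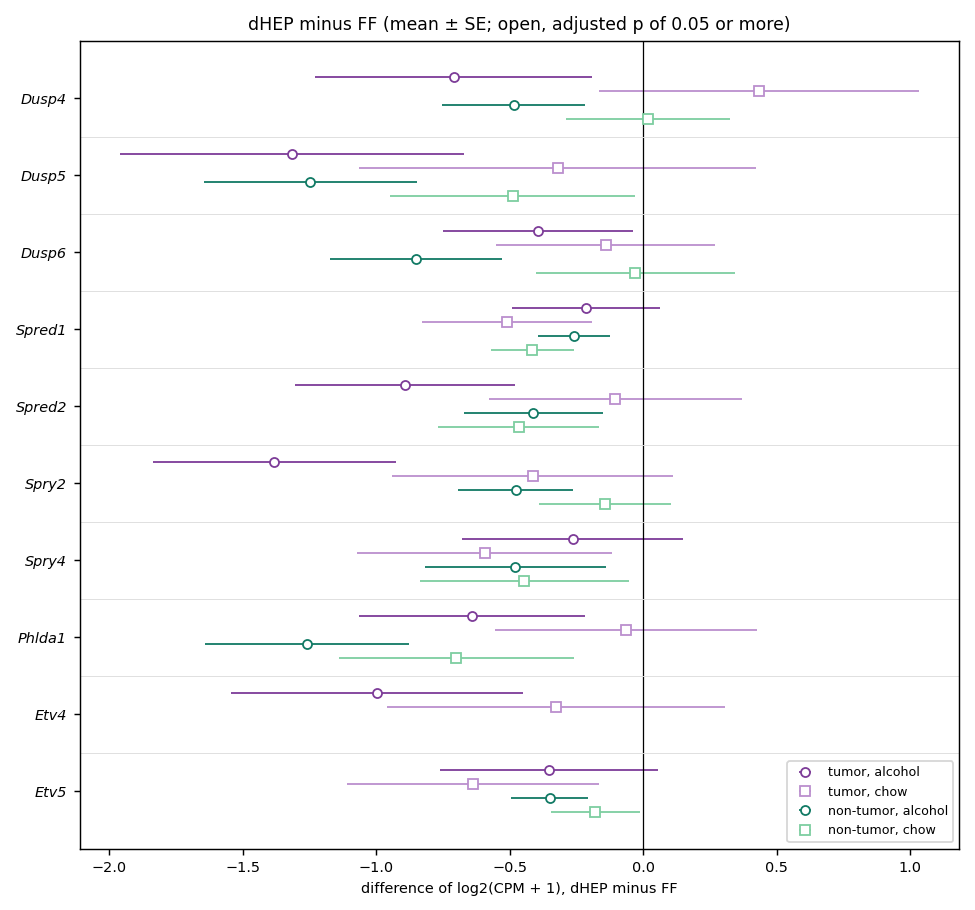
Difference between dHEP and FF mice of each feedback gene on the log2(CPM + 1) scale (points, estimate; lines, ± SE; purple, tumors; green, non-tumor liver; circles and darker, alcohol; squares and lighter, chow); no point passed an adjusted p of 0.05. Of 38 estimates 36 lie below 0, the exceptions being Dusp4 on chow in tumors (0.43) and in non-tumor liver (0.02), and Etv4 was not tested in non-tumor liver.

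In tumors on alcohol all 10 estimates were below 0 (median -0.68, against -0.02 over all 13205 genes), and 2 genes had an unadjusted p under 0.05, of 833 genes in all. Spry2 averaged 2.10 ± 2.13 CPM in dHEP tumors and 5.67 ± 1.11 CPM in FF tumors (SD, n = 4 each), a difference of -1.38 ± 0.46 (adjusted p = 0.687, limma). Spred2 averaged 11.4 ± 6.59 CPM in dHEP tumors and 19.5 ± 2.56 CPM in FF tumors, a difference of -0.89 ± 0.41 (adjusted p = 0.788, limma). The groups overlapped for every feedback gene, while 1.48% of all genes lay wholly higher and 2.07% wholly lower in dHEP tumors. The dHEP group held the low tumors dHEP-549 and dHEP-550: without dHEP-549 the estimates were -1.02 for Spry2 and -0.52 for Spred2, and without dHEP-550 they were -1.12 and -0.80 in the same order.

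On chow no feedback gene was called (limma); 1 of 9 in non-tumor liver (588 of all 12651 genes) and 0 of 10 in tumors (378 of all 13205) had an unadjusted p under 0.05. Spred1 read 21.7, 26.7 and 23.4 CPM in non-tumor liver of dHEP mice, against 30.8, 37.4 and 28.7 CPM in FF mice. Spred2 read 6.94, 7.48 and 7.80 CPM in non-tumor liver of dHEP mice, against 12.3, 10.9 and 8.88 CPM in FF mice. For both genes the dHEP libraries lay below the FF libraries, as for 4.64% of all genes (6.85% lay wholly above, none of them a feedback gene), with differences of -0.42 ± 0.15 for Spred1 and -0.47 ± 0.30 for Spred2 (adjusted p = 0.988 for each, limma). In tumors on chow every feedback gene overlapped between the genotypes, while 2.16% of all genes lay wholly higher and 3.28% wholly lower in dHEP. Averaged over the diets, 5 of 9 genes in non-tumor liver (668 of all genes) and 1 of 10 in tumors (403 of all genes) had an unadjusted p under 0.05. The smallest adjusted p among the feedback genes was 0.768 in non-tumor liver, for Phlda1 (-0.98 ± 0.29) and Spred1 (-0.34 ± 0.10), and 0.997 in tumors. The interaction of genotype with diet called no gene in either tissue (0%, limma), and 0 feedback genes had an unadjusted p under 0.05, against 870 of all genes in non-tumor liver and 653 in tumors.

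Between alcohol and chow no feedback gene was called in either genotype or tissue (limma). Of all genes, 0.656% were called in dHEP non-tumor liver (0.19% higher on alcohol, 0.466% lower), 0.577% in FF non-tumor liver (0.253% and 0.324%), 0.00757% in dHEP tumors and 0% in FF tumors. Averaged over the genotypes the share was 3.66% in non-tumor liver (1.19% higher, 2.47% lower) and 0% in tumors, again with no feedback gene. Every feedback gene overlapped between the diets, whereas in non-tumor liver 4.45% of all genes lay wholly higher on alcohol and 12.9% wholly lower in dHEP, and 4.19% and 5.11% in FF. In tumors these shares were 2.23% and 3.42% in dHEP and 1.76% and 9.13% in FF.

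At an unadjusted p under 0.05 there were 2 of the 10 feedback genes between the diets in dHEP tumors (1441 of all 13205 genes), 0 of 10 in FF tumors (718 of 13205), and 0 of 9 in non-tumor liver of dHEP (1662 of 12651) and of FF mice (1767 of 12651). Dusp4 averaged 24.3 ± 17.5 CPM in dHEP tumors on alcohol (n = 4) and 48.0 ± 7.54 CPM on chow (SD, n = 3), a difference of -1.30 ± 0.56 (adjusted p = 0.425, limma). Spred2 read 15.2, 18.5, 4.05 and 7.98 CPM in dHEP tumors on alcohol, against 45.6, 17.1 and 12.97 CPM on chow, a difference of -1.06 ± 0.44 (adjusted p = 0.415, limma). The low tumors dHEP-549 and dHEP-550 are in the alcohol group, and dHEP-155, with the highest Spred2, is in the chow group. Without dHEP-549 the estimates were -0.76 for Dusp4 and -0.68 for Spred2, and without dHEP-155 they were -1.33 for Dusp4 and -0.54 for Spred2.

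The rest of the pathway was read from lists of named genes in the averaged comparison of tumor with non-tumor liver, where 37.6% of all genes were called as higher and 20.9% as lower. Of the 17 ligands of receptor tyrosine kinases tested, 9 were higher and 4 lower. Nrg1, a ligand of ERBB receptors, was higher by 3.36 ± 0.26 and Btc (betacellulin), a ligand of the EGF receptor, by 2.07 ± 0.19, and Fgf1 (a fibroblast growth factor) was lower (-1.82 ± 0.12). Of the 17 receptors 4 were higher and 9 lower: Mst1r, the receptor of macrophage-stimulating protein, was higher by 2.08 ± 0.21, while Erbb4 (-2.13 ± 0.28) and Met, the receptor of hepatocyte growth factor (-0.50 ± 0.08), were lower. Of 23 genes for adaptors, RAS, RAF, MEK and ERK, 12 were higher and 1 was lower, but 8 were higher and 6 lower after scaling by median of ratios. The adaptor Shc1 (0.73 ± 0.09) and the ERK-activated kinase gene Rps6ka3 (0.83 ± 0.12) were higher, and the RAS activator Sos1 (-0.46 ± 0.07) was lower.

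Of 19 other feedback genes and paralogs 11 were higher and 3 lower. Phlda3, a relative of Phlda1 and a target of p53, was higher by 2.30 ± 0.29 in tumors, where Phlda1 was lower. The phosphatase genes Dusp9 (1.0 ± 0.14), which acts on ERK, and Dusp16 (0.77 ± 0.11), which acts on JNK and p38, were also higher. Of 24 ERK target genes 18 were higher and 0 lower (16 and 0 after scaling). Ccnd1, encoding cyclin D1, was higher by 2.82 ± 0.14, Egr1 by 2.29 ± 0.28 and Maff, a small MAF transcription factor gene, by 1.52 ± 0.18. The adjusted p of the genes named from these lists lay between 1.74e-12 for Ccnd1 and 1.23e-05 for Met (limma). In the genotype comparisons no gene of any list was called (limma). In non-tumor liver on alcohol, where FF-523 and FF-581 with their raised tumor markers are among the FF libraries, 7 of 21 ERK targets had an unadjusted p under 0.05 (1077 of all 12651 genes), with a median difference of -0.46 between dHEP and FF mice (-0.05 over all genes). On chow 2 of 21 did (588 of all genes), with a median of 0.11 (0.03 over all genes).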

How the data were processed

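RNA was isolated from liver tumors and non-tumor liver; per the labels, the molecule is polyA RNA and the kit a stranded total RNA kit, so the RNA fraction is not settled. The authors deposited CPM per gene for 28 libraries; each column sums to 1000000. Per the submitters' processing notes, STAR 2.5.1a, RSEM 1.3.0 and GRCm38 were used; the other steps are not given in the sources used here. Of values up to 20 reads, 85.4 to 87.5% per library were whole reads to within 0.1 read, too few to treat as counts. Symbols were matched for 21653 of 22187 gene IDs (GENCODE M21 for positions).

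Genes reaching 1 CPM in 3 or more of the fitted libraries were tested on log2(CPM + 1) with limma 3.58.1 in R 4.3.3 (moderated variances with a trend), genotype and diet within the 14 libraries of a tissue, tissue within all 28, with Benjamini-Hochberg adjustment. The code was tested on simulated data. Genes named were all 10 members, up to 3 called genes of smallest p per pathway list, and the 5 genes of highest mean r per tissue. The members and lists were chosen with earlier results of these data known. Replicates carry different numbers in their names, and the number was taken as the animal; if they were not separate animals, p-values would measure technical spread only. As a check on pairing tumor with non-tumor liver, deviations from the group means were correlated between same-numbered libraries. The r was 0.16 to 0.356 in FF on alcohol, -0.107 to 0.251 in dHEP on alcohol and 0.073 to 0.187 in dHEP on chow. For tumors dHEP-520 (0.076) and dHEP-550 (-0.107), the non-tumor library of another animal in the group correlated more.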

Additional observations from a re-analysis of the deposited data

How the results depend on the processing

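The results were recomputed with 0.5 in place of 1 added to CPM, without a filter, with only genes averaging at least 5 CPM, after median-of-ratios scaling, with quality weights per sample, from the 2 compared groups alone, with the animal as a replicate block, without each library, without non-tumor FF-523 and FF-581, and without non-tumor dHEP-155 and FF-158. The block in the interactions was chosen after seeing the data. In dHEP on chow the 5 feedback genes called between tumor and non-tumor liver became 3 with sample quality weights, 2 with the compared groups only and 3 without dHEP-155 and FF-158; the cause was not tested. Leaving out a library gave 4 to 5 calls in dHEP on alcohol, 2 to 7 in dHEP on chow, 5 to 8 in FF on alcohol (5 without tumor FF-503 or non-tumor FF-581 or FF-595), 4 to 6 in FF on chow and 9 in the averaged comparison. With the replicate block there were 4 calls in dHEP on alcohol, 4 in dHEP on chow, 10 in FF on alcohol and 8 in the averaged comparison. All alternatives other than leaving out a single library gave 4 to 5 calls in dHEP on alcohol and 2 to 5 in dHEP on chow. They gave 6 to 10 in FF on alcohol, 5 to 9 in FF on chow and 7 to 9 in the averaged comparison. Spry2 and Etv4 were not tested with the filter at a mean of 5 CPM. In the averaged comparison both were called in all 7 alternatives of this kind that tested them. Every alternative of every genotype, diet and interaction comparison gave 0 calls, and no feedback gene called between tumor and non-tumor liver changed sign under any. Genes below about 1 CPM, such as Etv4 in non-tumor liver, rest on few reads, so small differences there were not detectable at this depth. Groups of 3 or 4 libraries limit what the genotype and diet comparisons can show.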
